A study of Arabidopsis thaliana with 8 samples.

Results

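The genes of plastidial fatty acid synthesis and triacylglycerol assembly were compared between the epidermis and the mesophyll of Arabidopsis embryo cotyledons. They were 38 genes out of 33602 gene models, listed by identifier from the plastid pyruvate kinase to the last acyltransferase of oil assembly, and the rule that lists them uses no measured value. RNA came from 4 epidermis and 4 mesophyll samples of untreated wild-type Col-0 embryos, cut by laser microdissection from paraffin sections of seeds of greenhouse plants. By the study's methods a sample combined sections of several siliques, all of 1 plant. The study describes the embryos as torpedo stage in one place and as linear in another. The study names a possible carry-over of endosperm into the epidermis samples. All 38 genes passed the filter on low values, which kept the 15794 models that reached 1 CPM (read pairs of a model, scaled to a common library size) in 4 or more libraries.

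Seed oil is made in 2 compartments. In the plastid, pyruvate kinase and pyruvate dehydrogenase supply acetyl-CoA, acetyl-CoA carboxylase makes malonyl-CoA from it, and the fatty acid synthase enzymes extend the chain on an acyl carrier protein (ACP) until a thioesterase releases it. The fatty acids leave the plastid, are activated to acyl-CoA, are further desaturated in the endoplasmic reticulum and are joined to glycerol as triacylglycerol, the storage oil that the embryo uses at germination. The same plastid pathway also supplies membrane lipids in every cell, and in the epidermis the precursors of cutin and wax.

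Most genes of the pathway had transcript levels within 2-fold of each other in epidermis and mesophyll. None of the 38 genes differed by the edgeR quasi-likelihood F test at an adjusted p of 0.05 or less, where 0.981% of all genes tested were called higher in epidermis and 0.101% lower. The log2 fold changes of epidermis over mesophyll ran from -1.06 for FAD3 to 0.82 for PDAT1, with a median of -0.09 (all genes tested: -0.04). For 36 of 38 genes (94.7%) the estimate lay within 0.5 of 0 on the log2 scale, against 56% of all genes tested, and for 37 of 38 it lay within 1 of 0, against 77.5%. Among genes with a mean of 50 CPM or more, where estimates are less noisy, the share within 0.5 of 0 was 97.0% of 33 listed genes, against 79.6% of 3546 genes, and the share within 1 of 0 was 97.0% of the listed genes, against 93.5%. Above 50 CPM the listed genes and all genes were not matched in level. The 95% interval of the difference stayed within 2-fold in either direction for 33 genes, and within 0.5 of 0 for 12.

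The sign of the estimates was more often negative. It was below 0 for 25 of 38 genes (65.8%), against 53.1% of all genes tested. At a mean of 50 CPM or more it was below 0 for 72.7% of the 33 listed genes, against 56.7% of 3546 genes. At an unadjusted p under 0.05 the list held 1 gene higher in epidermis, PDH-E1-BETA, and 3 lower, ACP4, FAD3 and LTA2. Over all genes, 6.39% were higher and 5.43% lower by that rule. At 50 CPM or more it held for 3.03% (higher) and 9.09% (lower) of listed genes, against 7.47% and 11.3% of all genes at that level. The likelihood ratio test called 1 listed gene, FAD3, as lower, where it called 1.67% of all genes lower and 3.53% higher. With no replicate block no listed gene was called, against 1.75% of all genes higher and 0.538% lower. The 4 epidermis and 4 mesophyll values did not overlap for PDH-E1-BETA (epidermis above, as for 5.5% of all genes) and for LTA2 (epidermis below, as for 4.51%). Of all genes at 50 CPM or more, 6.03% had epidermis above without overlap and 8.29% epidermis below.

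**Figure D1:**
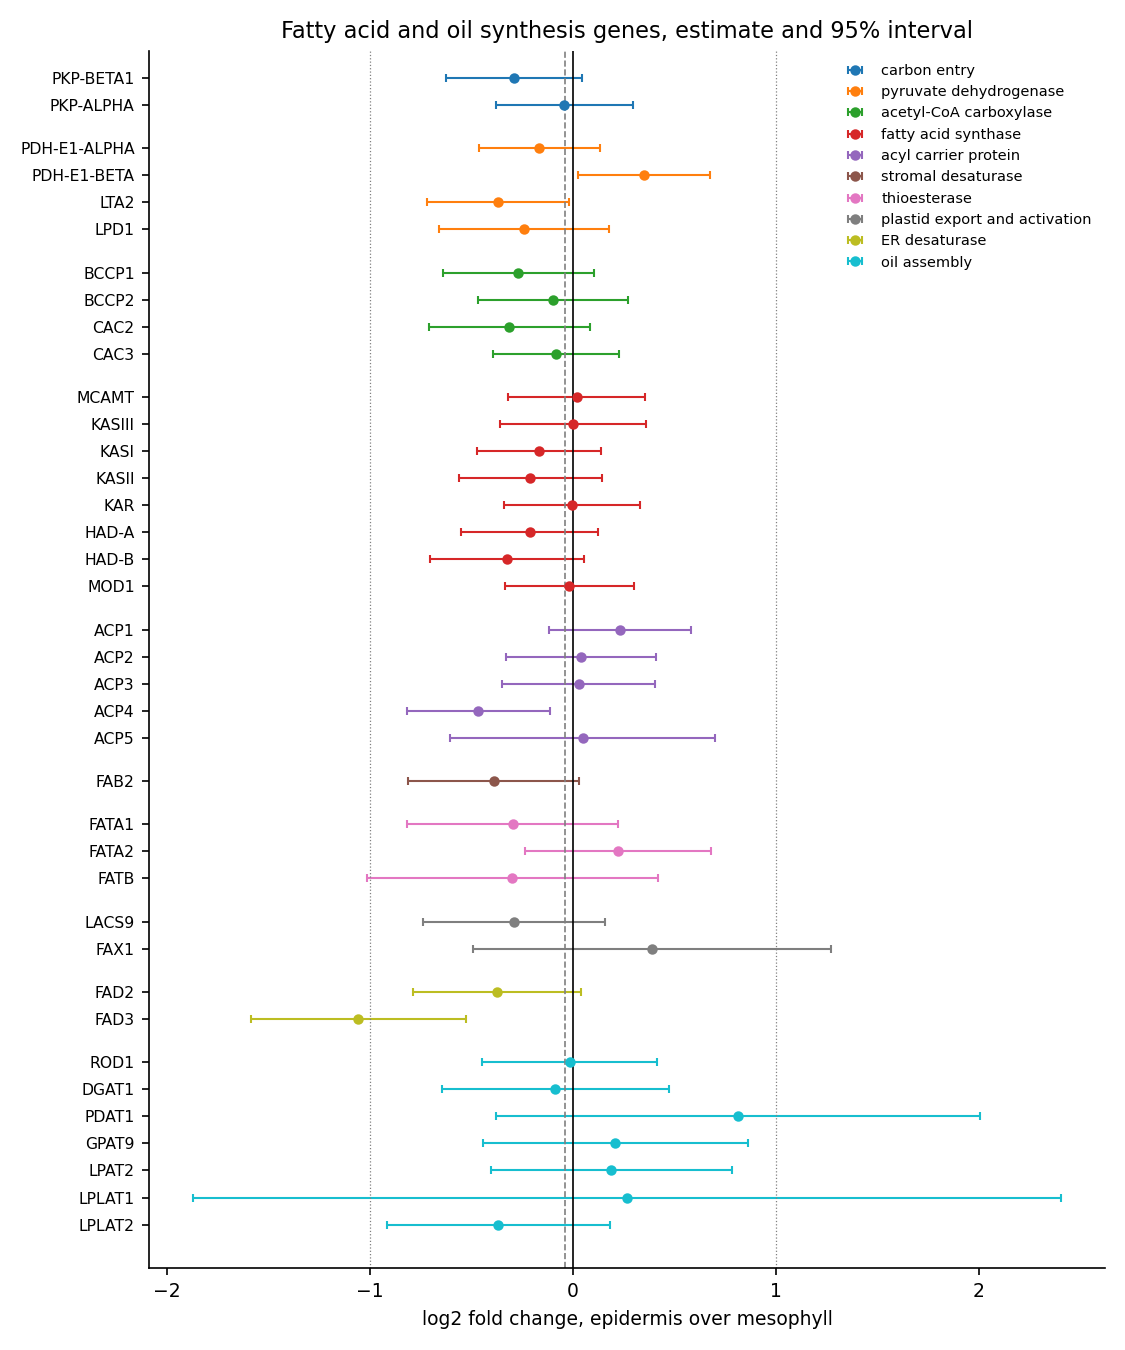
Log2 fold change of epidermis over mesophyll (x axis) for each of the 38 genes, grouped by step and coloured by step, with the 95% interval of the fit as a bar. The dashed line is the median of all genes tested (-0.04) and the dotted lines mark 2-fold. The points lie close to 0 except FAD3 at -1.06 and PDAT1 at 0.82, and the intervals of PDH-E1-BETA, LTA2, ACP4 and FAD3 exclude 0.

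As a share of each library, the 38 genes together took 21941, 20238, 20560 and 18592 CPM (unscaled) in epidermis replicates 1 to 4, against 22224, 22149, 21206 and 23842 CPM in mesophyll replicates 1 to 4. The 2 ranges overlap, and the means correspond to 2.03% of pairs in epidermis and 2.24% in mesophyll. Relative to the mean of a gene over all 8 libraries, the median listed gene stood at log2 deviations of 0.14 in epidermis replicate 1 and 0.17 in mesophyll replicate 4, the highest of their tissues. It stood at -0.10, -0.14 and -0.06 in epidermis replicates 2 to 4 and at 0.09, 0.05 and -0.06 in mesophyll replicates 1 to 3. Less RNA of a pathway per cell and fewer cells that express it cannot be told apart in such bulk samples.

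Markers of the labelled tissue and of other tissues were detected in the samples. The summed level of 8 epidermis markers was 3535 to 6396 CPM in epidermis, against 261 to 739 CPM in mesophyll, and all 8 were called higher in epidermis. For 8 mesophyll markers of photosynthesis it was 9559 to 14566 CPM in epidermis, against 17193 to 18527 CPM in mesophyll, with 3 called lower in epidermis and all 8 estimates negative. Endosperm markers summed to 254 to 374 CPM in epidermis, against 18.6 to 73.2 CPM in mesophyll. Of 14 such markers 7 were tested, all 7 with a positive estimate and 1 called, and MYB115 and PHE1 had no pair in any library. Seed coat markers summed to 16.7 to 59.8 CPM in epidermis, against 5.88 to 14.0 CPM in mesophyll. Of these 9 markers only 2 were tested, each with a positive estimate and 1 called. Vascular markers summed to 68.0 to 175 CPM in epidermis, against 143 to 211 CPM in mesophyll. Of 6 such markers 4 were tested, 1 called higher in epidermis and 3 with a negative estimate, none of them called. Whether the markers of other tissues came from carry-over or from the labelled cells was not tested. Their part in the values of the oil genes was not tested either. Each library held between 27676412 and 36685627 counted read pairs.

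Levels within the pathway ran from 5.40 to 2091 over all 8 libraries. These levels are per transcript length (TMM-scaled CPM per kb of transcript, here FPKM), and by them 28 of the 38 genes were among the 1000 most abundant of the 33602 gene models. ACP1, which carries the growing acyl chain, was the most abundant, at 2268 ± 383 FPKM in epidermis and 1914 ± 176 FPKM in mesophyll (SD, n = 4 each), with rank 25 among all models. At the low end, LPLAT1, an acyltransferase that moves acyl groups on and off phosphatidylcholine, was at 5.02 ± 2.39 FPKM in epidermis and 5.78 ± 5.74 FPKM in mesophyll. PDAT1, which makes triacylglycerol from phosphatidylcholine, was at 7.38 ± 2.40 FPKM in epidermis and 4.25 ± 1.49 FPKM in mesophyll. Of the 8 genes with the lowest levels, 6 belonged to oil assembly.

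**Figure D2:**
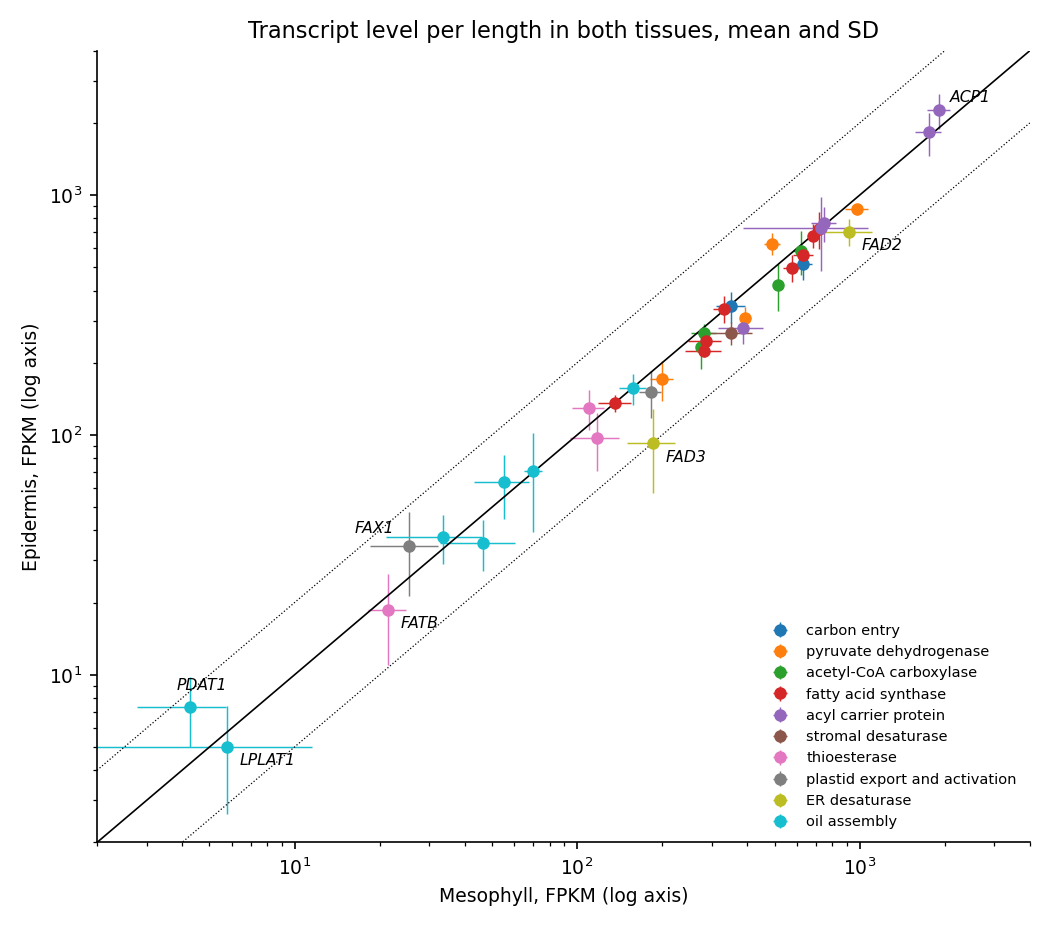
Transcript level per length in epidermis (y axis) against mesophyll (x axis) for the 38 genes, in FPKM (TMM-scaled CPM per kb of transcript) on log axes, as mean with SD over 4 libraries, coloured by step. The solid line marks equal levels and the dotted lines 2-fold. ACP1 is at the top right at 2268 and 1914, PDAT1 and LPLAT1 are at the bottom left below 10, and FAD3 lies on the lower 2-fold line. The mesophyll bar of LPLAT1 runs past the left edge.

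The spread between replicates was smaller for these genes than for all genes at 50 CPM or more. The median coefficient of variation of the 33 listed genes at 50 CPM or more was 15.0% in epidermis and 10.04% in mesophyll, against 22.8% in epidermis and 15.7% in mesophyll over the 3546 genes at that level. The median SE of a log2 fold change at that level was 0.16 for the listed genes, against 0.23 for the 3546 genes (0.49 over all genes tested, at any level). Above 50 CPM the sets were not matched in level, and 28 of the 38 listed genes had 100 CPM or more in every library. The part of level in the smaller spread was not tested. The gene with the fewest pairs in a library was LPLAT1, with 54.

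Carbon entry and the pyruvate dehydrogenase complex supply the acetyl-CoA. PKP-BETA1 (AT5G52920), a subunit of the plastid pyruvate kinase of seeds, was at 1350, 984, 1083 and 1035 TMM-scaled CPM in epidermis replicates 1 to 4, against 1365, 1301, 1250 and 1493 CPM in mesophyll replicates 1 to 4. The epidermis value was below the mesophyll value of the same number in 4 of 4 cases, but epidermis replicate 1 lay among the mesophyll values, and the log2 fold change was -0.29 (SE 0.15, edgeR adjusted p = 0.521). The partner subunit PKP-ALPHA (AT3G22960) had a log2 fold change of -0.04 (SE 0.15).

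The pyruvate dehydrogenase genes did not share a direction. PDH-E1-ALPHA (AT1G01090), a subunit of the decarboxylase of the complex, was at 1490, 1345, 1378 and 1467 CPM in epidermis, against 1696, 1549, 1401 and 1734 CPM in mesophyll. These ranges overlap, with a log2 fold change of -0.16 (SE 0.13, edgeR adjusted p = 0.733). PDH-E1-BETA (AT1G30120), the other subunit of the same enzyme, named here after its values were seen, was at 1022, 911, 899 and 1113 CPM in epidermis, against 806, 816, 706 and 754 CPM in mesophyll. Every epidermis library was above every mesophyll library, and the log2 fold change of 0.35 (SE 0.14, 95% interval 0.03 to 0.68) had an edgeR adjusted p of 0.374. LTA2 (AT3G25860), the acetyltransferase of the complex, had the opposite order, at 576, 526, 558 and 446 CPM in epidermis, against 675, 666, 647 and 721 CPM in mesophyll. Its log2 fold change was -0.37 (SE 0.15, 95% interval -0.72 to -0.02, edgeR adjusted p = 0.392). Neither gene was called by any of 24 alternative fits. LPD1 (AT3G16950), the dihydrolipoyl dehydrogenase, was at -0.24 (SE 0.18) on the log2 scale.

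Acetyl-CoA carboxylase of the plastid is built from separate subunits and makes the first committed intermediate. Its 4 nuclear genes had log2 fold changes of -0.31 to -0.08 and none was called. BCCP1 (AT5G16390) and BCCP2 (AT5G15530) encode the biotin carrier, BCCP2 being known mainly from developing seeds. BCCP2 was at 1031, 806, 754 and 637 CPM in epidermis, against 869, 879, 772 and 885 CPM in mesophyll. BCCP1 was at 258, 363, 238 and 297 CPM in epidermis, against 332, 343, 337 and 361 CPM in mesophyll. For both, the highest and the lowest value of all libraries were in epidermis, and the log2 fold changes were -0.10 (SE 0.16) and -0.27 (SE 0.16). CAC2 (AT5G35360), the biotin carboxylase, was at 940, 1083, 766 and 643 CPM in epidermis, against 1055, 994, 1071 and 1060 CPM in mesophyll. Epidermis replicate 2 was the highest of all 8 and replicate 4 the lowest, and the log2 fold change was -0.31 (SE 0.17, edgeR adjusted p = 0.574). CAC3 (AT2G38040), a carboxyltransferase subunit, was at -0.08 (SE 0.14). The other carboxyltransferase subunit, ACCD (ATCG00500), is encoded in the plastid genome and stood in the list of other lipid genes. Named here after its values were seen, it was at 32.4, 86.7, 100.1 and 94.96 CPM in epidermis, against 82.4, 117, 114 and 145 CPM in mesophyll. Epidermis replicate 1 was far below the other libraries, and the log2 fold change was -0.64 (SE 0.24, 95% interval -1.18 to -0.09, edgeR adjusted p = 0.32), or -0.28 without that library and with no block. These were poly(A) libraries, and how fully they hold transcripts of the plastid genome was not tested.

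The 8 genes of the fatty acid synthase enzymes lay close together. Their log2 fold changes ran from -0.32 to 0.02, with a median of -0.09, and their levels summed to 5077 ± 301 unscaled CPM in epidermis and 5523 ± 227 CPM in mesophyll (SD, n = 4 each). KAR (AT1G24360), the ketoacyl-ACP reductase, was at 1257, 1011, 877 and 894 CPM in epidermis, against 1034, 995, 943 and 1036 CPM in mesophyll. The mesophyll values lay inside the range of the epidermis values, and the 95% interval of the log2 difference was -0.34 to 0.33. KASI (AT5G46290), which elongates the chain up to palmitoyl-ACP, was at 1196, 976, 1083 and 1111 CPM in epidermis, against 1231, 1145, 1161 and 1357 CPM in mesophyll. KASII (AT1G74960), which makes stearoyl-ACP from palmitoyl-ACP, was at 540, 544, 620 and 544 CPM in epidermis, against 623, 611, 594 and 779 CPM in mesophyll. Each overlapped between tissues, with log2 fold changes of -0.17 (SE 0.13) and -0.21 (SE 0.15). HAD-B (AT2G22230), a hydroxyacyl-ACP dehydratase, had the lowest estimate of the step. It was at 214, 214, 200 and 192 CPM in epidermis, against 289, 249, 209 and 288 CPM in mesophyll, and only mesophyll replicate 3 reached the epidermis values (log2 fold change -0.32, SE 0.17, edgeR adjusted p = 0.528). KASIII (AT1G62640), the enzyme of the first condensation, the malonyltransferase MCAMT (AT2G30200), the dehydratase HAD-A (AT5G10160) and the enoyl-ACP reductase MOD1 (AT2G05990) were at 0.00, 0.02, -0.21 and -0.02 (SE 0.14 to 0.16).

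The levels of the 5 acyl carrier protein genes summed to 4332 ± 510 unscaled CPM in epidermis and 4208 ± 338 CPM in mesophyll (SD, n = 4 each). Per length the order in epidermis was ACP1 (AT3G05020) at 2268 ± 383, ACP2 (AT1G54580) at 1829 ± 373, ACP3 (AT1G54630) at 768 ± 127, ACP5 (AT5G27200) at 731 ± 248 and ACP4 (AT4G25050) at 278 ± 37.8 FPKM. The mesophyll order was the same, at 1914 ± 176, 1760 ± 184, 748 ± 77.0, 729 ± 341 and 386 ± 69.8 FPKM (SD, n = 4 each). The ranges of mean ± SD of ACP1 and ACP2 overlapped in each tissue, as did those of ACP3 and ACP5.

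ACP4, known as the main isoform of leaves, was at 276, 235, 290 and 216 CPM in epidermis, against 429, 347, 360 and 274 CPM in mesophyll. Mesophyll replicate 4 lay within the epidermis values and the other mesophyll libraries lay above all of them. The log2 fold change was -0.46 (SE 0.15, 95% interval -0.82 to -0.11), with an unadjusted p of 0.0159 and an edgeR adjusted p of 0.254. ACP1 was at 1993, 1592, 1321 and 1635 CPM in epidermis, against 1295, 1371, 1292 and 1563 CPM in mesophyll. It was higher in epidermis in each of the 4 replicate numbers while the ranges overlapped, with a log2 fold change of 0.23 (SE 0.15, edgeR adjusted p = 0.657).

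The other carriers did not pass the test. ACP2 was at 1999, 1306, 1374 and 1766 CPM in epidermis, against 1502, 1701, 1343 and 1655 CPM in mesophyll. ACP3 was at 740, 522, 541 and 584 CPM in epidermis, against 548, 617, 515 and 644 CPM in mesophyll. Their log2 fold changes were 0.04 and 0.03 (SE 0.16 each) and their highest value of all was epidermis replicate 1. ACP5 varied most between replicates, at 451, 221, 240 and 316 CPM in epidermis, against 223, 308, 187 and 507 CPM in mesophyll, with coefficients of variation of 33.9% in epidermis and 46.8% in mesophyll and a log2 fold change of 0.05 (SE 0.28).

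**Figure D3:**
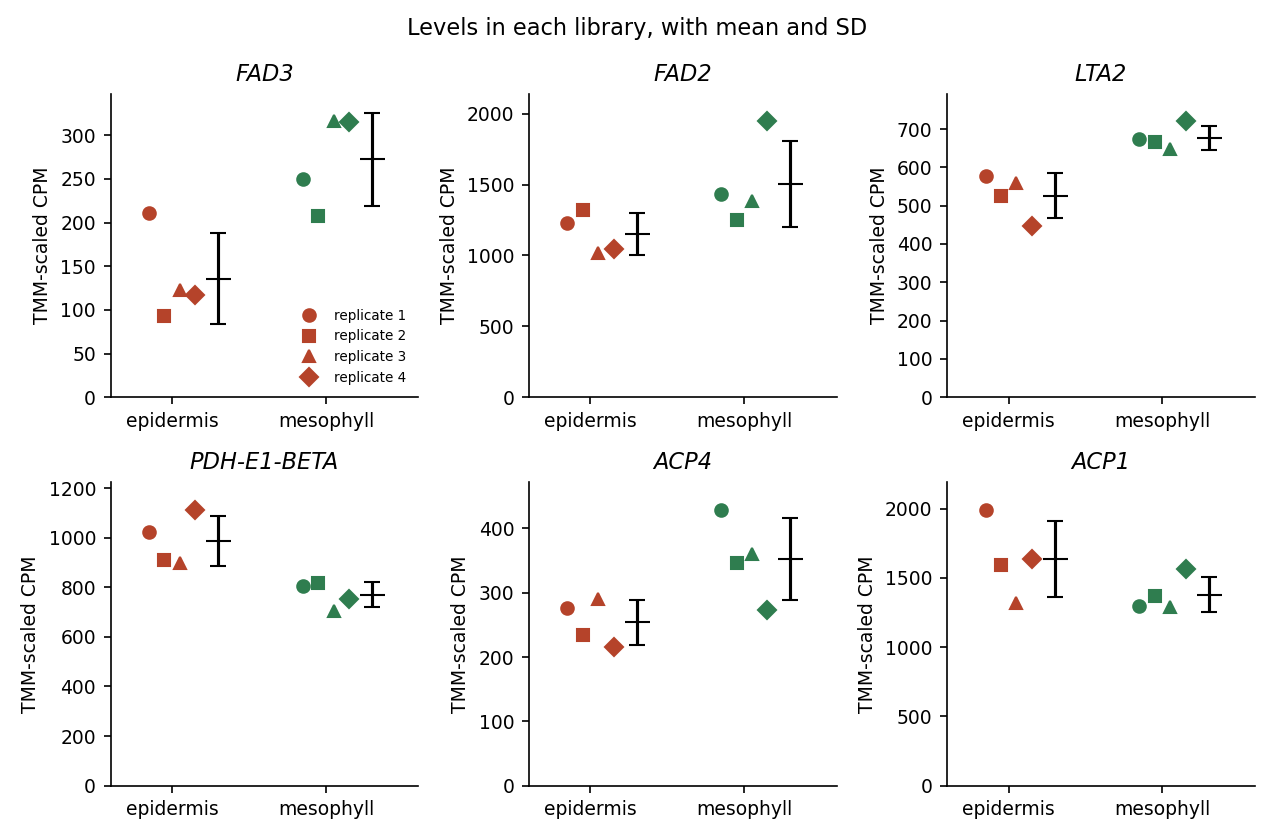
TMM-scaled CPM (y axes, from 0) of FAD3, FAD2, LTA2, PDH-E1-BETA, ACP4 and ACP1 in the 4 epidermis libraries (left) and the 4 mesophyll libraries (right), with the marker shape giving the replicate number and a bar giving mean and SD. The groups are apart for LTA2 and PDH-E1-BETA, and for FAD3 epidermis replicate 1 at 211 reaches the lowest mesophyll library at 208.

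Release from the carrier sets which fatty acids leave the plastid. FAB2 (AT2G43710), the stearoyl-ACP desaturase that makes oleate on the carrier, was at 515, 470, 477 and 397 CPM in epidermis, against 586, 672, 469 and 729 CPM in mesophyll. Mesophyll replicate 3 lay among the epidermis values, and the log2 fold change was -0.39 (SE 0.18, 95% interval -0.81 to 0.03, edgeR adjusted p = 0.476). The FATA thioesterases, which release mainly oleate, had estimates of opposite sign. FATA1 (AT3G25110) was at 173, 97.6, 162 and 197 CPM in epidermis, against 228, 194, 138 and 202 CPM in mesophyll (log2 fold change -0.29, SE 0.23). FATA2 (AT4G13050) was at 215, 171, 166 and 246 CPM in epidermis, against 139, 192, 176 and 172 CPM in mesophyll (0.22, SE 0.20). Neither set of libraries was apart. FATB (AT1G08510), which releases mainly palmitate, was lower per length in each tissue, at 18.7 ± 7.75 FPKM in epidermis and 21.5 ± 3.31 FPKM in mesophyll, where FATA1 was at 97.2 ± 26.2 FPKM in epidermis and 117 ± 23.4 FPKM in mesophyll. Its CPM were 18.0, 43.4, 36.1 and 56.1 in epidermis, against 40.7, 37.2, 45.6 and 52.9 in mesophyll, with epidermis replicate 1 the lowest of all libraries and a log2 fold change of -0.30 (SE 0.31).

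Export and activation lead to the acyl-CoA pool outside the plastid. LACS9 (AT1G77590), an acyl-CoA synthetase of the outer plastid envelope, was at 487, 359, 394 and 285 CPM in epidermis, against 418, 454, 446 and 517 CPM in mesophyll. Epidermis replicate 1 lay among the mesophyll values and the others below them (log2 fold change -0.29, SE 0.20, edgeR adjusted p = 0.677). FAX1 (AT3G57280), a fatty acid exporter of the inner envelope, was at 23.0, 47.3, 24.4 and 47.3 CPM in epidermis, against 22.9, 22.6, 36.8 and 22.4 CPM in mesophyll. Epidermis replicates 2 and 4 were the highest of the 8 libraries, and the interval of the log2 difference, -0.49 to 1.28, was wide.

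The lowest estimate of the list belonged to a desaturase of the endoplasmic reticulum. FAD3 (AT2G29980), which turns linoleate into alpha-linolenate, was at 211, 92.7, 123 and 117 CPM in epidermis, against 250, 208, 316 and 315 CPM in mesophyll. Epidermis replicates 2 to 4 lay below every mesophyll library, and replicate 1 lay between mesophyll replicates 2 and 1. The log2 fold change was -1.06 (SE 0.23, 95% interval -1.58 to -0.53), with an unadjusted p of 0.0017 and an edgeR quasi-likelihood adjusted p of 0.0845. FAD3 was lower in epidermis in 4 of 4 replicate numbers, as were 9 of the 38 genes (23.7%) and 10.8% of all genes tested. At 50 CPM or more the shares were 27.3% of listed genes and 15.7% of all genes at that level. The data do not show that equal numbers pair the libraries. The call depended on the test. The adjusted p was 0.00517 with the likelihood ratio test, 0.0193 with the bias-adjusted quasi-likelihood fit, 0.00747 with limma-voom and 2.73e-04 with DESeq2, and 0.0167 without epidermis replicate 1 and with no replicate block. Over all 24 alternatives the estimate ran from -1.32 to -0.86 and the highest adjusted p was 0.329, without replicate 3. The FAD3 gene lies on chr2:12781524-12785190 (minus strand, TAIR10.1), and counts cover its whole transcript model.

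FAD2 (AT3G12120), the preceding desaturase that makes linoleate from oleate, was more abundant per length, at 704 ± 89.5 FPKM in epidermis and 920 ± 186 FPKM in mesophyll, where FAD3 was at 92.8 ± 35.3 FPKM in epidermis and 186 ± 36.2 FPKM in mesophyll. Its values were 1228, 1319, 1016 and 1042 CPM in epidermis, against 1431, 1253, 1387 and 1947 CPM in mesophyll. Mesophyll replicate 2 lay among the epidermis values and replicate 4 above all others, with a log2 fold change of -0.37 (SE 0.18, 95% interval -0.79 to 0.04, edgeR adjusted p = 0.492).

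The 7 genes of oil assembly on the glycerol backbone had log2 fold changes from -0.37 to 0.82 with a median of 0.19. DGAT1 (AT2G19450), which adds the last acyl chain from acyl-CoA, was at 234, 155, 107 and 90.4 CPM in epidermis, against 154, 135, 154 and 137 CPM in mesophyll. The epidermis values spread widely around a tight mesophyll group, with coefficients of variation of 44.0% in epidermis and 7.34% in mesophyll, and the 95% interval of the log2 difference was -0.64 to 0.47. PDAT1 (AT5G13640), the other enzyme of the last step, was at 20.9, 14.6, 17.4 and 30.1 CPM in epidermis, against 6.82, 14.3, 16.2 and 10.4 CPM in mesophyll. It was higher in epidermis in 4 of 4 replicate numbers, while mesophyll replicate 3 reached the epidermis values and the log2 fold change of 0.82 had an SE of 0.52 (edgeR adjusted p = 0.647). ROD1 (AT3G15820), which exchanges head groups between diacylglycerol and phosphatidylcholine, was the most abundant of the step per length. It was at 208, 210, 150 and 189 CPM in epidermis, against 176, 170, 202 and 214 CPM in mesophyll, which overlap throughout (95% interval -0.45 to 0.42).

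GPAT9 (AT5G60620) and LPAT2 (AT3G57650), which place the first and second acyl chains on glycerol phosphate, had log2 fold changes of 0.21 (SE 0.28) and 0.19 (SE 0.26). LPLAT1 (AT1G12640) and LPLAT2 (AT1G63050), which exchange acyl chains of phosphatidylcholine, were at 0.27 (SE 0.93) and -0.37 (SE 0.24). The interval of LPLAT1, -1.87 to 2.41, was the widest of the list, and its mesophyll libraries spread from 1.79 to 25.3 CPM.

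Ratios of genes within a library do not depend on how libraries are scaled, and 6 of them were compared with a two-sided exact permutation test of mean log2 ratios. With 4 against 4 libraries its smallest p is 0.0286, and p-values were adjusted over the 6 ratios. FAD3 pairs per FAD2 pair were 0.172, 0.0703, 0.121 and 0.112 in epidermis, against 0.175, 0.166, 0.228 and 0.162 in mesophyll. Epidermis replicate 1 overlapped the mesophyll range, and the log2 ratio differed by -0.68 (exact p = 0.0857, adjusted p = 0.257). ACP4 pairs per pair of the other 4 carriers were 0.0532, 0.0645, 0.0833 and 0.0502 in epidermis, against 0.120, 0.0868, 0.108 and 0.0626 in mesophyll. Mesophyll replicate 4 lay inside the epidermis range, and the difference was -0.57 (exact p = 0.0857, adjusted p = 0.257).

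The other 4 ratios overlapped more. DGAT1 over PDAT1 was 11.2, 10.6, 6.12 and 3.01 in epidermis, against 22.6, 9.41, 9.49 and 13.2 in mesophyll, a log2 difference of -0.90 (exact p = 0.171, adjusted p = 0.343). The FATA genes over FATB gave 21.5, 6.19, 9.11 and 7.89 in epidermis, against 9.01, 10.4, 6.88 and 7.07 in mesophyll. The log2 difference was 0.27 (exact p = 0.657), and without replicate 1, whose epidermis library was the highest, it was -0.060. BCCP2 over BCCP1 was 3.99, 2.22, 3.17 and 2.15 in epidermis, against 2.62, 2.56, 2.29 and 2.45 in mesophyll (log2 difference 0.17, exact p = 0.486). KASII over KASI was 0.452, 0.557, 0.572 and 0.489 in epidermis, against 0.506, 0.534, 0.511 and 0.574 in mesophyll (log2 difference -0.04, exact p = 0.629, and 0.020 without replicate 4).

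**Figure D4:**
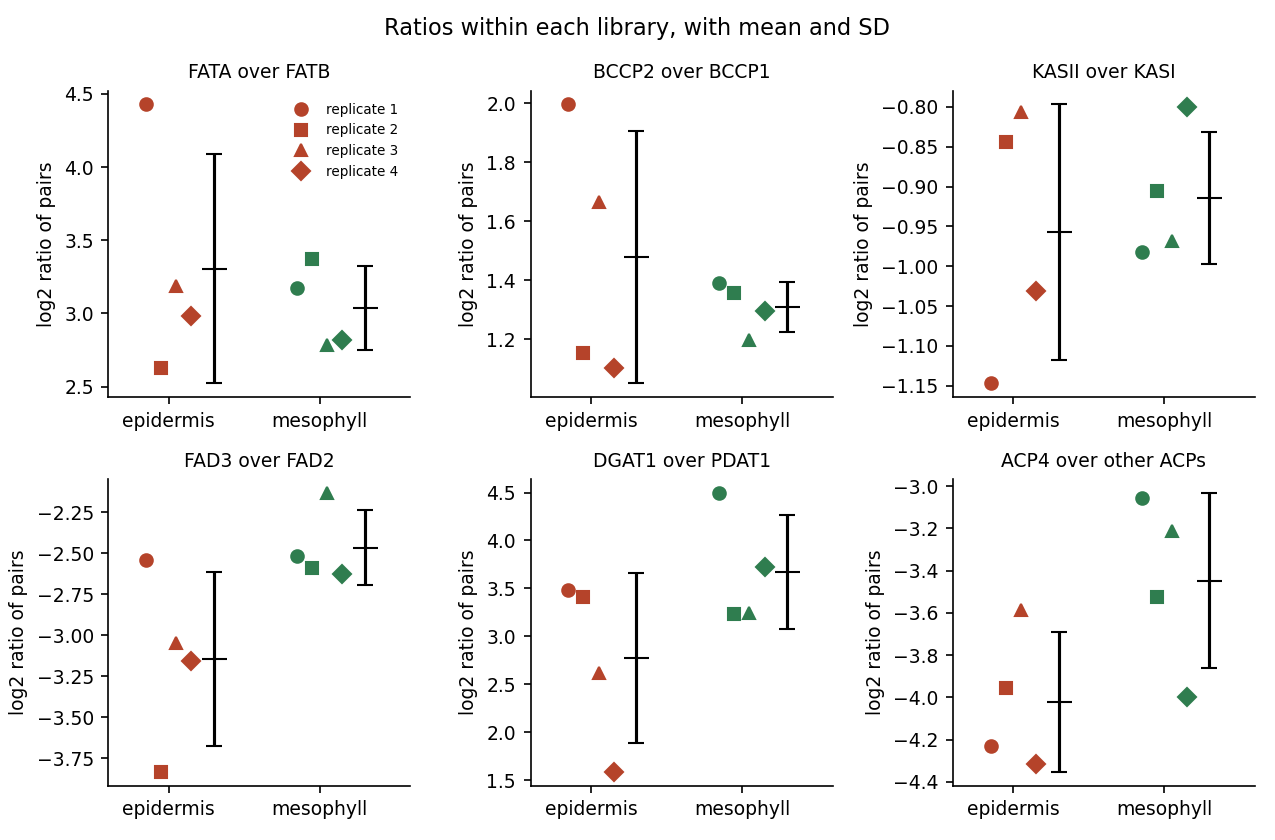
Log2 ratio of read pairs of named genes within each library (y axes) for 6 ratios, epidermis left and mesophyll right, with the marker shape giving the replicate number and a bar giving mean and SD over 4 libraries. No ratio separates the tissues. FAD3 over FAD2 and ACP4 over the other ACPs have the lowest p, with log2 differences of -0.68 and -0.57.

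The regulators known for this pathway were described from a list of 12 genes. Of these 11 were tested and 1 was called higher in epidermis, as were 0.981% of all genes tested. WRI1, the AP2 factor that activates late glycolysis and fatty acid synthesis in embryos, was at 290, 302, 229 and 320 CPM in epidermis, against 244, 258, 255 and 310 CPM in mesophyll. The epidermis values surround those of mesophyll, and the log2 fold change was 0.09 (SE 0.16, edgeR adjusted p = 0.896). BADC1, BADC2 and BADC3, which inhibit acetyl-CoA carboxylase by taking the place of its biotin carrier, had log2 fold changes of -0.02 (SE 0.18), 0.05 (SE 0.15) and -0.29 (SE 0.15), none called.

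LEC1, a CCAAT-binding factor subunit that promotes embryo maturation and oil deposition, was the called gene. It was at 87.5, 119, 125 and 158 CPM in epidermis, against 26.9, 40.2, 18.7 and 12.6 CPM in mesophyll. All epidermis libraries were above all mesophyll libraries, and LEC1 rose by a log2 fold change of 2.40 (SE 0.38, edgeR adjusted p = 0.0268). The call was lost without replicate 1 (adjusted p = 0.0858) and without replicate 3 (0.154). FUS3, a B3 factor of maturation named after its values were seen, also had all epidermis values, 149, 210, 109 and 107 CPM, above those of mesophyll, 61.2, 60.8, 60.4 and 89.2 CPM (log2 fold change 1.05, SE 0.27, adjusted p = 0.14, called in 5 of 24 alternatives). The study, by a likelihood ratio test, listed LEC1 and FUS3 among factors higher in epidermis and cited an epidermal localisation for each. Summed endosperm markers were 254 to 374 CPM in these epidermis libraries, against 18.6 to 73.2 CPM in mesophyll. The part of endosperm RNA in the LEC1 and FUS3 values was not tested.

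WRI1 is known to bind the AW-box, which reads CNTNGNNNNNNNCG. It was searched on both strands of the window from 250 bases before to 50 bases after the annotated start of each gene (RefSeq, TAIR10.1). It was present for 8 of 38 listed genes (21.1%), and for 11.8% of 26711 promoters of protein-coding genes. The genes were PDH-E1-ALPHA, PDH-E1-BETA, CAC3, HAD-B, ACP1, ACP5, LACS9 and LPLAT2. FAD3, LTA2 and ACP4 had no match in the window. The RY element CATGCA was present for 5 of 38 genes, against 9.78% of all promoters, and the G-box CACGTG for 4 of 38, against 7.79%. A match of letters is a description of the sequence and not a measured binding site.

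The sites of the abundant pyruvate dehydrogenase, carboxylase and carrier genes show what was matched, each with 8 flanking bases, on the strand that reads as the motif and with the fixed bases in capitals. The PDH-E1-ALPHA site lies at chr1:49365-49394 (minus strand), the PDH-E1-BETA site at chr1:10586662-10586691 (plus strand), the CAC3 site at chr2:15917026-15917055 (plus), the ACP1 site at chr3:1392928-1392957 (minus) and the ACP5 site at chr5:9571139-9571168 (plus).
PDH-E1-ALPHA: gaaaaaaaCaTtGgtgttaaCGaagaaggg
PDH-E1-BETA: catgtttaCaTtGttttcatCGaactcatg
CAC3: aggagtcaCgTgGgcacgtgCGagagagca
ACP1: ttcacgctCtTtGtacactcCGccctctct
ACP5: ttcacgctCcTtGaacaatcCGccatctct
The ACP1 and ACP5 stretches were identical at 26 of 30 bases. In CAC3 the motif overlaps 2 G-boxes. Counted along the gene from the annotated start, with +1 as its first base, the motif begins at -82 in PDH-E1-ALPHA, -3 in PDH-E1-BETA, +3 in CAC3, +6 in ACP1 and -38 in ACP5. The PDH-E1-BETA site reads on the strand opposite to its gene, so -3 is the last base of its motif as printed. Of these genes PDH-E1-BETA and ACP1 had positive estimates (0.35 and 0.23), PDH-E1-ALPHA and CAC3 negative ones (-0.16 and -0.08) and ACP5 one near 0 (0.05). The remaining genes with the motif, HAD-B, LACS9 and LPLAT2, had negative estimates (-0.32, -0.29 and -0.37).

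Genes next to the pathway were described from further lists. Of 23 genes of carbon supply, from sucrose synthase through plastid glycolysis to further copies of plastid pyruvate kinase and pyruvate dehydrogenase subunits, 21 were tested and none was called, with a median log2 fold change of -0.08. By the unadjusted p none was higher and 3 were lower, and the likelihood ratio test called 1 as lower. Over all genes tested the unadjusted p gave 6.39% higher and 5.43% lower, and the likelihood ratio test 3.53% higher and 1.67% lower. FBA1, a plastid aldolase named after its values were seen, was at 143, 98.9, 96.9 and 75.2 CPM in epidermis, against 210, 182, 200 and 173 CPM in mesophyll, without overlap (log2 fold change -0.92, SE 0.19, edgeR adjusted p = 0.0678). It was called in 7 of 24 alternatives. Of 9 genes of oil bodies and oil breakdown none was called, none passed the unadjusted p or the likelihood ratio test, and the median was -0.19. These 9 summed to 1959 to 4147 unscaled CPM in epidermis, against 2023 to 4943 CPM in mesophyll, a wider spread than that of the synthesis genes.

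A list of other lipid genes held a call. Of 33 genes 32 were tested and 1 was called, LACS2, an acyl-CoA synthetase of cutin synthesis. Over all genes tested 0.981% were called higher in epidermis and 0.101% lower. By the unadjusted p 8 were higher and 2 lower, against 6.39% higher and 5.43% lower over all genes. The likelihood ratio test called 5 higher and 1 lower, against 3.53% higher and 1.67% lower over all genes. The median log2 fold change was 0.24. LACS2 was at 172, 205, 92.2 and 228 CPM in epidermis, against 19.8, 11.6, 8.66 and 3.86 CPM in mesophyll. The groups were far apart, and LACS2 rose by a log2 fold change of 4.10 (SE 0.47, edgeR adjusted p = 0.00668), a call kept in all 24 alternatives. LACS1, of wax and cutin synthesis and named after its values were seen, was at 73.5, 161, 69.5 and 72.9 CPM in epidermis, against 40.8, 22.9, 5.84 and 4.28 CPM in mesophyll (log2 fold change 2.87, SE 0.53, adjusted p = 0.0524, called in 9 of 24 alternatives). Its estimate was 3.49 without replicate 1 and 1.97 without epidermis replicate 2 and with no block. LACS9, the plastid envelope synthetase listed above, was at -0.29 beside them.

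ACC1, the carboxylase that makes malonyl-CoA outside the plastid, named after its values were seen, was at 242, 182, 146 and 202 CPM in epidermis, against 75.4, 64.3, 143 and 86.2 CPM in mesophyll. All epidermis libraries were above all mesophyll libraries, with mesophyll replicate 3 close to the lowest of epidermis (log2 fold change 1.12, SE 0.29, edgeR adjusted p = 0.138, called in 5 of 24 alternatives). The study, by its likelihood ratio test, reported ACC1 as preferentially expressed in epidermis.

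FAE1, the elongase that makes very-long-chain fatty acids of seed oil, had the opposite order. It was at 245, 119, 134 and 59.8 CPM in epidermis, against 318, 405, 304 and 613 CPM in mesophyll, without overlap (log2 fold change -1.65, SE 0.43, edgeR adjusted p = 0.152, named after its values were seen and called in 4 of 24 alternatives).

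**Figure D5:**
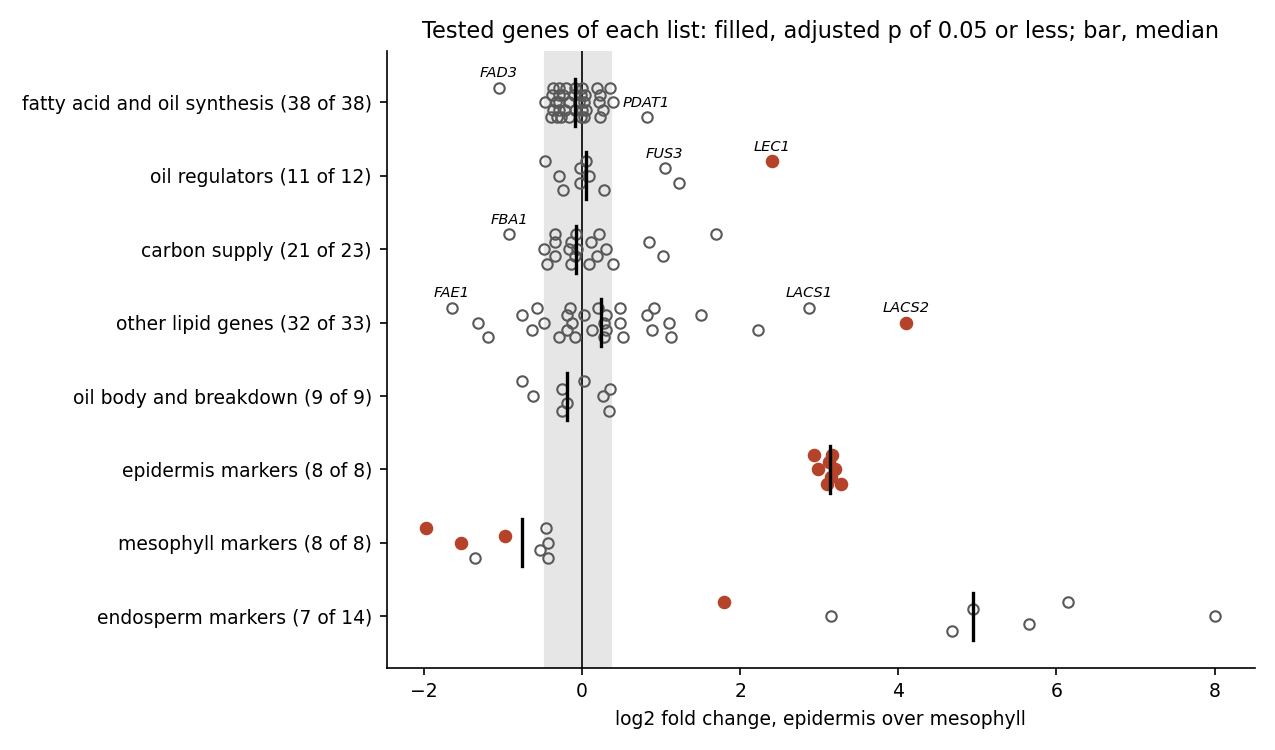
Log2 fold change of epidermis over mesophyll (x axis) for each tested gene of 8 gene lists (rows, with the number tested of the number listed), where filled points have an adjusted p of 0.05 or less, black bars are medians and the grey band is the interquartile range of all genes tested, from -0.47 to 0.37. The fatty acid and oil synthesis genes lie within the band or close to it except FAD3 and PDAT1, LEC1 and LACS2 are the filled points of the other metabolic lists, and all 8 epidermis markers are filled near 3.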

How the data were processed

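The authors filtered out ribosomal reads, mapped the pairs to representative TAIR10 gene models (Bowtie2, local mode) and tallied them by a script of theirs. The submitters' processing notes also name TopHat2. The deposited tables give each model's count of read pairs, not normalized, with reads of equally good second matches left out, from poly(A) libraries of a low-input kit without strand information or molecular identifiers, so counting limits cover counting error only. The files also hold counts of single reads, used as an alternative.

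All 33602 models were read, and 32835 matched TAIR10.1. Models that reached 1 CPM in 4 or more libraries were fitted in edgeR 4.0.16 (R 4.3.3) with TMM scaling, replicate number as a block and tissue, by the quasi-likelihood F test with Benjamini-Hochberg adjustment over 15794 models. The study used a likelihood ratio test, which is an alternative here. The block follows the study's harvest date, although labels tie no number to a plant or date, so the p-values reflect sample-to-sample spread, which may be technical in part. The study's methods give a lower RNA integrity for epidermis than for mesophyll, and its part in the values was not tested. The SE is the fold change over the square root of F. Fits were checked on simulated counts, with changed genes drawn at random from all genes tested. There the main test left most genes changed by 2-fold or 4-fold uncalled. The listed genes had a smaller median SE than all genes tested (0.165 against 0.49), so that share is not theirs. A gene that is not called is not shown to be equal between tissues, and its 95% interval gives the differences that the fit allows. Levels are TMM-scaled CPM unless called unscaled. A model without pairs was below 3 pairs, or 0.0818 to 0.108 CPM. No listed gene shared an identical stretch of 100 bases with another locus, and stretches with mismatches were not searched. Libraries of a tissue were not copies (chi-square per degree of freedom 88.1 to 263). Alternatives used limma 3.58.1 and DESeq2 1.42.0, other scaling and filters, and libraries left out.

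The members, lists and tests were chosen with earlier results of these data known. Values in every library are given by a fixed rule: in each of 10 steps the member with the highest level per length and the one with the largest fold change, all ACP genes, and both sides of the 6 ratios. WRI1, the BADC genes and called genes of other lists were added. Other genes are said to be named after their values were seen.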

Additional observations from a re-analysis of the deposited data

Results flagged for a closer look

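A value far from the other 3 of its tissue was looked for in 122 groups of 4 libraries, with Dixon's ratio against its critical value for 4 samples, which chance passes in about 5% of groups, or 6.1 of these. It was passed in 4. KASII was high in epidermis replicate 3, at 620 CPM against 540 to 544 CPM in the other epidermis libraries. KASII was also high in mesophyll replicate 4, at 779 CPM against 594 to 623 CPM. BCCP2 was low in mesophyll replicate 3, at 772 CPM against 869 to 885 CPM. FAX1 was high in mesophyll replicate 3, at 36.8 CPM against 22.4 to 22.9 CPM.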

How the results depend on the processing

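Over 24 alternatives no listed gene was called higher. Listed genes called lower numbered 1, FAD3, with the likelihood ratio test, the bias-adjusted fit, DESeq2 and limma-voom, and 0 to 1 with libraries left out (1 without epidermis replicate 1 and with no block). With no replicate block there were 0, and 361 of all genes differed in place of 171. All genes that differed numbered 821 with the likelihood ratio test, 633 with the bias-adjusted fit, 1320 with DESeq2, 497 with limma-voom and 257 with a filter of 10 CPM, and 55 to 264 with libraries left out. The median of the listed genes stayed below 0. Same-numbered libraries did not deviate together (correlations -0.025 to 0.092, own number best for 1 of 4), so the block rests on the study's design. An exact permutation by sign flips within replicate numbers, a replicate block for the ratios, gave p = 0.125 for FAD3 over FAD2 and for ACP4 over the other ACPs, the smallest they allow. The FATA over FATB difference ran from -0.060 to 0.61 with a number left out, and KASII over KASI from -0.11 to 0.020. Of 936 values of single genes, 53 from 10 genes changed sign, none over 0.27 in size. KAR changed sign to 0.012 with no block, 0.0097 with DESeq2, 0.0064 with limma-voom, 0.0097 with RLE scaling, 0.0071 with a filter of 10 CPM and 0.0058 without models of long A or T runs. DGAT1 was at 0.012 with no block, and with upper quartile scaling ACP2 was at -0.0074 and ACP3 at -0.017. With libraries left out KAR ran from -0.11 to 0.076, ACP2 from -0.082 to 0.18, ACP3 from -0.10 to 0.12, ACP5 from -0.27 to 0.36, BCCP2 from -0.21 to 0.027, FATB from -0.47 to 0.039, ROD1 from -0.12 to 0.12, DGAT1 from -0.31 to 0.19, BADC1 from -0.19 to 0.092 and BADC2 from -0.054 to 0.17. The cause was not tested.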
